A study of Mus musculus with 6 samples.

Results

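The genes described here are 6 regulators of phosphate supply and mineralization, taken by symbol from the 32286 genes counted in each library: Alpl, Phospho1, Enpp1, Mgp, Slc20a1 and Slc20a2. All 6 were present in the count tables, and each had unique molecular identifiers (UMIs, which mark single captured RNA molecules) in all 6 libraries. The cells came from "digits in a dish" (DID) cultures, in which mesenchyme dissociated from the distal forelimbs of E11.5 CD-1 mouse embryos is seeded at high density and left to form digit-like cartilage. The groups were Day 2, Day 7 and Day 10 of culture, with 2 independent cultures each, called replicates A and B. No group carried a mutation, transgene or added drug, limbs were pooled before plating, and the cultures were kept in serum-containing medium for which the methods name no added phosphate donor. The cultures therefore model cells without blood supply, and nothing in the labels ties a culture to a single embryo.

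Growing cartilage and bone mineralize when phosphate is freed close to a matrix that can hold crystals and when the brakes on crystal growth are lifted. Alpl encodes tissue-nonspecific alkaline phosphatase, which hydrolyses pyrophosphate, a potent inhibitor of crystal growth, and so frees phosphate at the cell surface and in matrix vesicles. Phospho1 is a phosphatase inside matrix vesicles that releases phosphate from phosphocholine and phosphoethanolamine. On the side of inhibition, Enpp1 makes pyrophosphate from extracellular nucleotides, and Mgp encodes matrix Gla protein, a vitamin K-dependent inhibitor of cartilage and artery calcification. Slc20a1 and Slc20a2 (PiT-1 and PiT-2) are sodium-dependent carriers that take phosphate into cells. In the growth plate, Alpl and Phospho1 are known from hypertrophic chondrocytes and osteoblasts, the cells that mineralize their matrix.

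In the mouse genome (GRCm38), Alpl (ENSMUSG00000028766) lies on the minus strand of chromosome 4 at 137741733 to 137796384. Phospho1 (ENSMUSG00000050860) lies on the plus strand of chromosome 11 at 95824499 to 95832140, and Enpp1 (ENSMUSG00000037370) on the minus strand of chromosome 10 at 24637914 to 24712159. Mgp (ENSMUSG00000030218) lies on the minus strand of chromosome 6 at 136872435 to 136875823. Slc20a1 (ENSMUSG00000027397) lies on the plus strand of chromosome 2 at 129198764 to 129211616, and Slc20a2 (ENSMUSG00000037656) on the plus strand of chromosome 8 at 22476788 to 22569612. All 6 are protein-coding genes, and the libraries read their 3′ ends.

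Promoter windows, from 250 bases before to 50 bases after an annotated start, were matched for 4 of the 6 genes in RefSeq on GRCm38.p6. The set of promoter windows used here held none for Mgp and Slc20a2. The windows of the 2 phosphatases that promote mineralization and of Enpp1, which opposes Alpl, are shown because these genes act on the same phosphate and pyrophosphate pool, and because Alpl and Enpp1 moved apart between Day 7 and Day 10 in whole cultures. Capitals mark the RUNX core letters ACCACA (or TGTGGT on the other strand) and the GC box letters GGGCGG (or CCGCCC). Alpl has 2 annotated starts, an upstream one (window chr4:137796335-137796634, minus strand) and one inside the gene (window chr4:137766426-137766725, minus strand). The Phospho1 window is chr11:95824250-95824549 on the plus strand and the Enpp1 window is chr10:24712110-24712409 on the minus strand.
Alpl, upstream start: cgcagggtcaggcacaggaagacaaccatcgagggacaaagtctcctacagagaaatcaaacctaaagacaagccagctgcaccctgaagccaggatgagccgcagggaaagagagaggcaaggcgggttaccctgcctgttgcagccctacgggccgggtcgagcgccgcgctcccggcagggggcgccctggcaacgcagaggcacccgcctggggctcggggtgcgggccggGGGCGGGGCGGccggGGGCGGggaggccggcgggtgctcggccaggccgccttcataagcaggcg
Alpl, inner start: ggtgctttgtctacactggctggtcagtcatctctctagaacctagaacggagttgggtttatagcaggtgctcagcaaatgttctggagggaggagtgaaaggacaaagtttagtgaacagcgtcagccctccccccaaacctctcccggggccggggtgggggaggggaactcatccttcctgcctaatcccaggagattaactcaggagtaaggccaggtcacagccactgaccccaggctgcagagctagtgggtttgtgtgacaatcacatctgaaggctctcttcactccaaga
Phospho1: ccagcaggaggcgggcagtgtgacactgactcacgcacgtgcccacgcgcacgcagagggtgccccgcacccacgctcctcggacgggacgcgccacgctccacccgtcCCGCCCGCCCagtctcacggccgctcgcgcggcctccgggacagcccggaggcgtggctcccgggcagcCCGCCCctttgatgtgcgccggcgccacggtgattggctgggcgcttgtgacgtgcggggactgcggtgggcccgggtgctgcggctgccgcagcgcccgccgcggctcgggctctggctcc
Enpp1: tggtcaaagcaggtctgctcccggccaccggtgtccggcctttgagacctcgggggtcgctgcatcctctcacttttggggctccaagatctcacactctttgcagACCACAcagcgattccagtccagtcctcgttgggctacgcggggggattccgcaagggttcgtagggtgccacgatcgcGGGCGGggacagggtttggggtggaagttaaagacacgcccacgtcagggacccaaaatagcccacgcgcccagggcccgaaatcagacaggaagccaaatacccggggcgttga

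Counting the start as position 0, the upstream Alpl window held GC boxes beginning at -15, -10 and 0, of which the first pair overlap, and no RUNX letters. The inner Alpl window held neither motif. Phospho1 had GC boxes at -141, -137 and -72, the first pair again overlapping. Enpp1 had a RUNX match at -144 and a GC box at -65, which do not overlap. For Slc20a1, whose windows are not printed, the upstream start (chr2:129198523-129198822, plus strand) held a RUNX match at -77 and GC boxes at -152 and -46, and the inner start (chr2:129206846-129207145, plus strand) a GC box at -140. Among 32851 such windows of 27025 genes, 35.7% held a GC box and 16.8% the RUNX letters, so these matches are common and describe letters only. The letters TATAAA (or TTTATA), held by 13.6% of all windows, were also found at -192 of the inner Alpl window, and the E-box letters CACGTG, held by 7.15%, at -215 of the Phospho1 window. The upstream Slc20a1 window held both as well, TATAAA or its complement at -1 and CACGTG at -175 and -22. The matches in Alpl and Phospho1 lie in the lower-case part of the printed sequences.

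After the filters of the study were rebuilt, 9448 to 16486 cells and 178022112 to 260245417 UMIs remained per library. Day 2 replicate B stood apart, with 41.4% of its cells under 3000 UMIs and a median of 3871 UMIs per cell, against 18587 in Day 2 replicate A and 8062 to 24197 in the other libraries. Day 7 replicates A and B had 30.8% and 23.5% of their cells under 3000 UMIs, against 7.92% and 10.9% in Day 10 replicates A and B. Depth per cell thus differed between these days as well. Pairs of libraries shared 24 to 67 cell barcodes, at most 0.543% of the smaller library. Cells of each day were clustered with all 6 genes left out of the clustering, and a cluster was named only from marker lists. In the order A, B, the chondrocyte-like share of cells was 14.4% and 6.52% on Day 2. It rose to 24.2% and 24.8% on Day 7 and stood at 25.5% and 25.9% on Day 10, while 57.4% to 80.7% of cells per library stayed in unnamed clusters. The rise to Day 7 depended on the clustering resolution. In replicate A the share fell from 40.1% to 19.3% at 0.5 times the resolution and from 38.1% to 24.4% at 2 times. In replicate B it rose from 17.2% to 20.3% and from 15.5% to 24.7%. Without integration of the replicates it rose in both. The summed level of the 16 chondrocyte markers in the chondrocyte-like cells was 7792 and 8281 CPM at Day 2, 44552 and 44153 CPM at Day 7, and 49591 and 47449 CPM at Day 10. CPM are UMIs of a gene per 1e6 UMIs of the cells summed. A bone-like cluster appeared at Day 10, with 160 and 158 cells. It was named from Sp7, Ibsp, Ifitm5 and related markers.

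Over whole cultures, the phosphatases and the inhibitors rose together between Day 2 and Day 10, Alpl the most steeply, while the carrier Slc20a1 rose by less (log2 0.81) and Slc20a2 moved little. The Day 2 cultures had 3.32 and 4.25 CPM of Alpl, the Day 7 cultures 18.6 and 16.5 CPM, and the Day 10 cultures 85.7 and 90.6 CPM. Each day lay above the day before with no overlap of cultures, and the values at Day 10 rest on 22310 and 21136 UMIs. The fitted rise was 2.50 ± 0.10 on the log2 scale from Day 2 to Day 7 (SE; edgeR quasi-likelihood test, adjusted p = 1.2e-07). It was 2.30 ± 0.09 from Day 7 to Day 10 (adjusted p = 2.7e-06) and 4.81 ± 0.11 over both steps (adjusted p = 4e-09), or 28.0-fold. Without Day 2 replicate B, the library that stood apart, the rise over both steps was 4.98. The chondrocyte and bone marker lists each rose mainly at a single step. In whole cultures the 16 chondrocyte markers summed to 2703 and 3004 CPM at Day 2, 24915 and 23087 CPM at Day 7, and 14683 and 13574 CPM at Day 10. The 9 bone markers summed to 12.7 and 15.2 CPM at Day 2, 18.4 and 18.6 CPM at Day 7, and 566 and 797 CPM at Day 10. Some other lists rose at both steps, among them the 6 perichondrium markers. These summed to 1308 and 1405 CPM at Day 2, 3007 and 2785 CPM at Day 7, and 5266 and 4644 CPM at Day 10. The part of these lists in the rise of Alpl was not tested. In these summed libraries, fewer cells of a type and less RNA per cell cannot be told apart.

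Phospho1 was counted sparsely, with 8 and 15 UMIs in the Day 2 libraries. Its level was 0.0389 and 0.0843 CPM at Day 2, 0.475 and 0.549 CPM at Day 7, and 0.573 and 0.540 CPM at Day 10. The gain therefore came between Day 2 and Day 7 (log2 3.35 ± 0.31, adjusted p = 1.4e-05, with 2.89 without Day 2 replicate A and 3.96 without Day 2 replicate B), and the Day 7 and Day 10 cultures overlapped (0.10 ± 0.23, adjusted p = 0.74), unlike those of Alpl.

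Among the inhibitors, Mgp stood at 359 and 368 CPM at Day 2, 1475 and 1444 CPM at Day 7, and 2393 and 2307 CPM at Day 10. It rose at both steps, by log2 2.29 ± 0.07 (adjusted p = 1.8e-08) and 0.67 ± 0.06 (adjusted p = 9.9e-05). Enpp1 took another course, with 5.14 and 5.30 CPM at Day 2, 14.5 and 13.9 CPM at Day 7, and 10.2 and 11.3 CPM at Day 10. It rose by log2 1.72 ± 0.07 (adjusted p = 7.6e-08) and then fell by 0.42 ± 0.06 (adjusted p = 0.00076), so that Alpl climbed from Day 7 to Day 10 while the enzyme that makes its pyrophosphate substrate came down. The summed level of the 16 chondrocyte markers came down with it, from 24915 and 23087 CPM in the whole cultures of Day 7 to 14683 and 13574 CPM at Day 10, and their part in the fall was not tested. Enpp1 still lay above Day 2 at Day 10 (1.30 ± 0.07, adjusted p = 2.3e-07).

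The carrier Slc20a1 stood at 21.7 and 23.9 CPM at Day 2, 24.4 and 26.3 CPM at Day 7, and 33.1 and 33.6 CPM at Day 10. It rose by log2 0.43 ± 0.06 (adjusted p = 0.00024) and 0.38 ± 0.06 (adjusted p = 0.0012), the first of which was not called when libraries were scaled to their totals (0.15 ± 0.06, adjusted p = 0.059). Slc20a2 had the smallest fitted difference of the 6 from Day 2 to Day 10, with 15.2 and 16.3 CPM at Day 2, 13.4 and 12.7 CPM at Day 7, and 11.7 and 11.4 CPM at Day 10. It was not called from Day 2 to Day 7, where its log2 difference of 0.01 ± 0.06 turned to -0.27 ± 0.06 (adjusted p = 0.0025) when libraries were scaled to their totals. It was called lower at Day 10 than at Day 7 (-0.20 ± 0.06, adjusted p = 0.017) and than at Day 2 (-0.19 ± 0.06, adjusted p = 0.012). In cells thinned to 1000 UMIs the difference from Day 2 to Day 10 turned to 0.32 and was not called (adjusted p = 0.083). The drop from Day 7 was lost without Day 7 replicate A (adjusted p = 0.13) or Day 10 replicate B (adjusted p = 0.11) and in cells thinned to 1000 UMIs (-0.030, adjusted p = 0.91), and that from Day 2 without Day 2 replicate B (adjusted p = 0.051) or Day 10 replicate B (adjusted p = 0.1).

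Of the 6 genes, 5 were called higher and 0 lower from Day 2 to Day 7, where 70.3% of the 18987 genes tested in whole cultures were called (35.7% higher, 34.6% lower). At Day 10 against Day 7, 3 were higher and 2 lower, against 52.2% of all genes (26.3% higher, 25.9% lower). At Day 10 against Day 2, 5 were higher and 1 lower, against 77.3% (39% higher, 38.2% lower). With so many genes called, the count of 6 says little, and size sets the genes apart more than the call does. The median absolute log2 difference over all genes was 0.55, 0.31 and 0.69, and Alpl ranked at the 96.3, 99.5 and 99.1 percentiles of signed log2 differences. The fit scales libraries by trimmed mean of M-values (TMM), which centres the bulk of genes at 0. Scaling to library totals instead moved the all-gene median by -0.28 from Day 2 to Day 7 and -0.26 from Day 2 to Day 10, and the share of calls that were higher from 50.8% to 33.3% and from 50.5% to 36.9%.

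**Figure D1:**
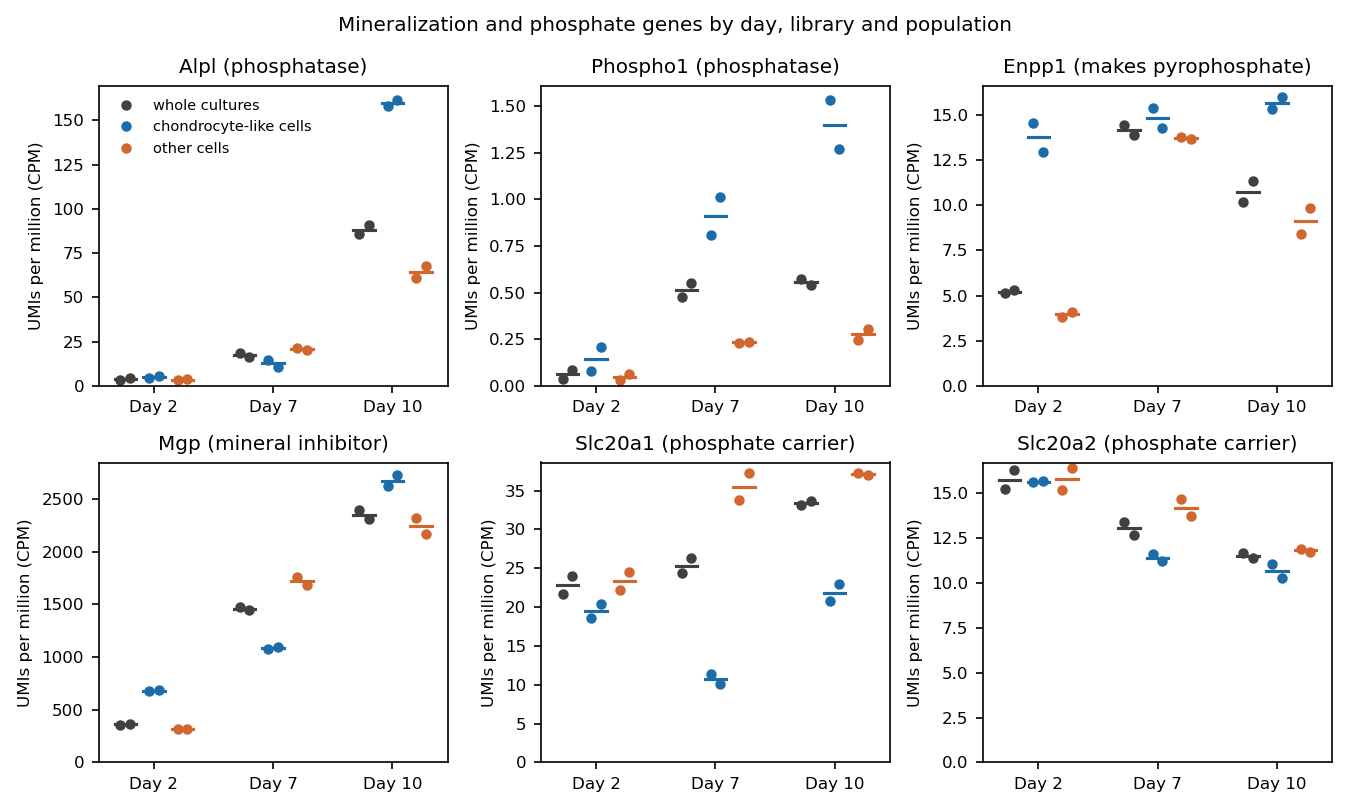
Levels of the 6 genes in CPM (vertical axes, each starting at 0) at Day 2, Day 7 and Day 10. Each point is 1 library, dark grey for whole cultures, blue for chondrocyte-like cells and orange for all other cells, and each bar is the mean of the 2 libraries. Alpl in the chondrocyte-like cells has a mean of 159.8 CPM at Day 10, well above both earlier days, while Slc20a1 in these cells dips at Day 7.

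Within the chondrocyte-like cells Alpl rose at both steps, by 11.7-fold at the second. It stood at 4.70 and 5.73 CPM at Day 2 (mean 5.22 ± 0.734 SD, n = 2), 14.7 and 10.6 CPM at Day 7 (12.7 ± 2.88) and 158 and 161 CPM at Day 10 (159.8 ± 2.27). The 3 days did not overlap. The rise to Day 7 was log2 1.76 ± 0.15 (adjusted p = 1.3e-07), and the rise from Day 7 to Day 10 was 3.55 ± 0.10 (adjusted p = 1e-10). Without Day 2 replicate B the change from Day 2 to Day 10 was 5.45, against 5.31 with it. Among 16121 genes tested in these cells, the rise of Alpl from Day 7 to Day 10 ranked at the 99.85 percentile. At the same step Ibsp (5.77), Col10a1, the collagen of hypertrophic cartilage (3.97), Mmp13 (3.42), Sp7 (2.03) and Ihh (1.54) were all called higher, whereas Col2a1, the main cartilage collagen, differed by 0.20 and was not called (adjusted p = 0.059).

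The clusters that hold this class differ between days: cluster 3 at Day 2, clusters 0, 9 and 13 at Day 7, and clusters 0, 9, 10, 11 and 16 at Day 10. The summed level of the 9 bone markers in the chondrocyte-like cells was 14.6 and 16.4 CPM at Day 2, 16.8 and 19.5 CPM at Day 7, and 384 and 423 CPM at Day 10. It thus changed little over the first step, where Alpl also rose, and moved with Alpl only over the second. Ibsp alone made up 324 and 354 CPM of the Day 10 sums, and Sp7 went from 8.15 and 7.96 CPM at Day 7 to 37.4 and 33.5 CPM. Markers of other cell types also rose in these cells from Day 7 to Day 10: the 6 perichondrium markers from 924 and 827 CPM to 1814 and 1754 CPM, the 5 contractile markers from 582 and 677 CPM to 982 and 1291 CPM, and the 7 immune markers from 0.731 and 1.28 CPM to 5.96 and 9.36 CPM. Mepe, a marker of late osteoblasts and osteocytes, was at 0 UMIs in these cells at Day 2 and Day 7. The part of these RNAs in the rises of Alpl, Mgp and Slc20a1 was not tested. In the contractile-like cluster of Day 10, which comes from the same libraries and was among the lowest of that day, Alpl was 4.95 and 4.37 CPM. At Day 7 the contractile-like cells held 7.98% and 10.1% of all Alpl UMIs with 23.4% of all UMIs in each replicate.

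Phospho1 in the chondrocyte-like cells rested on 2 and 5 UMIs at Day 2 (0.0789 and 0.209 CPM). It stood at 0.810 and 1.01 CPM at Day 7 and at 1.53 and 1.27 CPM at Day 10. The rise to Day 7 was log2 3.12 ± 0.43 (adjusted p = 1.6e-05), with 2.59 without Day 2 replicate A and 3.95 without Day 2 replicate B. The step from Day 7 to Day 10 missed the threshold (0.52 ± 0.21, adjusted p = 0.068), although the cultures of the 2 days did not overlap. It was called under several other settings, among them without Day 10 replicate B (0.66 ± 0.24, adjusted p = 0.046) and with library totals (0.63 ± 0.21, adjusted p = 0.03).

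Mgp rose at both steps in the chondrocyte-like cells, from 678 and 685 CPM at Day 2 to 1080 and 1094 CPM at Day 7 and 2621 and 2727 CPM at Day 10. Its log2 rises were 1.15 ± 0.07 (adjusted p = 2.4e-09) and 1.19 ± 0.07 (adjusted p = 3e-08). From Day 2 to Day 10 the inhibitor grew alongside Alpl in these cells, by log2 2.34 ± 0.07 (adjusted p = 2.3e-12) against 5.31 ± 0.13 for Alpl (adjusted p = 4.8e-13). Enpp1 stood at 14.6 and 13.0 CPM at Day 2, 15.4 and 14.3 CPM at Day 7, and 15.3 and 16.0 CPM at Day 10, and the cultures of Day 2 and Day 7 overlapped. That overlap depended on how the class was drawn. At 0.5 times the resolution Enpp1 went from 7.45 and 7.85 CPM at Day 2 to 14.2 and 13.3 CPM at Day 7. At 2 times the resolution it went from 10.0 and 10.4 CPM to 16.3 and 14.5 CPM, and without integration from 15.3 and 13.4 CPM to 16.7 and 15.4 CPM. In the main clustering its call from Day 2 to Day 7 (0.58 ± 0.08, adjusted p = 1.7e-05) was lost with library totals (0.10 ± 0.08, adjusted p = 0.27) and with cells thinned to 1000 UMIs (0.55, adjusted p = 0.09). From Day 7 to Day 10 it did not pass the test (-0.03 ± 0.07, adjusted p = 0.77, and 0.08 ± 0.07 with library totals), whereas it was called lower with the class by marker UMIs (-0.29, adjusted p = 0.0042).

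Slc20a1 fell and then rose in the chondrocyte-like cells. It stood at 18.6 and 20.4 CPM at Day 2, 11.3 and 10.1 CPM at Day 7, and 20.8 and 22.9 CPM at Day 10, and the Day 7 cultures lay below all others. The log2 fall was -0.38 ± 0.08 (adjusted p = 0.00082), and it turned to 0.29 ± 0.09 (adjusted p = 0.011) when the class was drawn by marker UMIs per cell in place of clusters, a setting that took in 82.1% and 77.5% of Day 7 cells. With cells thinned to 1000 UMIs it was -0.50 and not called (adjusted p = 0.11). The rise to Day 10 was 0.91 ± 0.07 (adjusted p = 8.7e-07). Depth moved with this gene: the shallow chondrocyte-like clusters 9 and 11 of Day 10, whose cells had median UMI counts of 3923 to 4806, held mean levels of 79.5 and 93.2 CPM, against 13.4 CPM in cluster 0, whose median was 34291 to 37242. The part of depth in the change of Slc20a1 was not tested. Slc20a2 stood at 15.6 and 15.7 CPM at Day 2, 11.6 and 11.2 CPM at Day 7, and 11.0 and 10.3 CPM at Day 10. It was called lower from Day 7 to Day 10 (-0.21 ± 0.07, adjusted p = 0.038), a call lost without Day 7 replicate A (adjusted p = 0.18), Day 7 replicate B (0.13) or Day 10 replicate B (0.26), with library totals (-0.098, adjusted p = 0.31), with the DESeq2 test (adjusted p = 0.17), at 0.5 times the resolution (-0.036, adjusted p = 0.72) and in thinned cells (0.10, adjusted p = 0.79). Day 10 against Day 2 missed the threshold (-0.19 ± 0.08, adjusted p = 0.051) but Slc20a2 was called lower under 6 alternatives, among them library totals (-0.55, adjusted p = 2.8e-05), the class by marker UMIs (-0.29, adjusted p = 0.003), clustering without integration (-0.24, adjusted p = 0.015) and without Day 10 replicate A (-0.25, adjusted p = 0.034). In thinned cells the difference from Day 2 to Day 10 had the other direction, at 0.50, and was not called (adjusted p = 0.14). The direction of Slc20a2 from Day 2 to Day 7 turned from 0.02 to -0.46 with library totals, a fall that was called (adjusted p = 0.00013).

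In the chondrocyte-like cells, 4 of the 6 genes were called higher and 1 lower from Day 2 to Day 7, where 71.1% of all genes tested were called (35.9% higher, 35.2% lower). From Day 7 to Day 10 it was 3 higher and 1 lower, against 39.7% (20.4% higher, 19.3% lower). Day 10 against Day 2 gave 5 higher and 0 lower, against 74.7% (38.4% higher, 36.3% lower). Of these 5, Enpp1 (0.55, adjusted p = 2.9e-05) and Slc20a1 (0.53, adjusted p = 3.2e-05) were not called with library totals (0.18, adjusted p = 0.064, and 0.17, adjusted p = 0.096), and Enpp1 was not called in thinned cells (0.55, adjusted p = 0.092). Scaling to library totals moved the all-gene median at these 3 comparisons by -0.47, 0.11 and -0.37, and the share of calls that were higher from 50.4% to 25.4%, from 51.3% to 72.0% and from 51.4% to 33.0%. Alpl, Phospho1 and Mgp kept their directions under this scaling.

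In cells outside the chondrocyte-like clusters the larger rise of Alpl came by Day 7. Their level was 3.13 and 4.02 CPM at Day 2, 21.5 and 20.5 CPM at Day 7, and 61.1 and 67.8 CPM at Day 10, so that at Day 7 both values lay above those of the chondrocyte-like cells and at Day 10 both lay below. The log2 rises were 2.75 (adjusted p = 8.5e-08) and 1.68 (adjusted p = 6.4e-06). Without the bone-like cluster the Day 10 level in these cells was 40.7 and 46.1 CPM. Mgp rose from 314 and 318 CPM to 1761 and 1682 CPM and then to 2316 and 2172 CPM. Enpp1 rose from 3.82 and 4.11 CPM to 13.8 and 13.7 CPM and fell to 8.40 and 9.83 CPM (log2 -0.52, adjusted p = 0.00073), a fall not called with the class by marker UMIs (-0.20, adjusted p = 0.21). In the other cells, 5 of the 6 genes were higher and 0 lower from Day 2 to Day 7, against 66.7% of all genes called (34.2% higher, 32.4% lower). From Day 7 to Day 10, 2 were higher and 2 lower, against 54.7% (28.1% higher, 26.5% lower). Day 10 against Day 2 gave 5 higher and 1 lower, against 76% (38.4% higher, 37.6% lower). Slc20a2 was among the lower ones at both (-0.20, adjusted p = 0.024, and -0.16, adjusted p = 0.041). The first call was lost without either library of Day 7 or of Day 10 (adjusted p = 0.053 to 0.18), with no filter on low counts (0.065) and in thinned cells (-0.081, adjusted p = 0.73). The second was lost without Day 2 replicate B or any of those 4 libraries (adjusted p = 0.054 to 0.19), with no filter (0.08) and with only the 2 days compared (0.056). This second call was also lost with the replicate letter as a block (-0.16, adjusted p = 0.054), and thinned cells turned it to 0.26 (adjusted p = 0.17). Library totals moved the all-gene median in the other cells by -0.19, -0.07 and -0.26. The higher share of calls went from 51.4% to 37.5% for Day 7 with Day 2 and from 50.5% to 36.8% for Day 10 with Day 2.

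The difference between the 2 classes was tested as an interaction on the sums of each library. From Day 7 to Day 10, Alpl rose more in the chondrocyte-like cells than in the others by log2 1.91 ± 0.09 (adjusted p = 2.3e-08), and Mgp by 0.77 (adjusted p = 1.5e-07), Slc20a1 by 0.81 (adjusted p = 9.5e-06) and Enpp1 by 0.53 (adjusted p = 0.00039). From Day 2 to Day 7 the difference had the opposite sign for all 4 of these, with Alpl at -0.95 ± 0.17 (adjusted p = 0.00054) and Mgp at -1.44 ± 0.05 (adjusted p = 5.6e-10). Clustering without integration of the replicates ended the calls of Alpl at the first step (-0.44, adjusted p = 0.14) and of Enpp1 at the second (0.26, adjusted p = 0.067). Phospho1 and Slc20a2 did not pass the test at any step, with Phospho1 at 0.77, 0.25 and 1.02 (adjusted p = 0.41, 0.61 and 0.25). At 2 times the resolution, however, Phospho1 was called higher from Day 2 to Day 7 (2.02, adjusted p = 0.025) and from Day 2 to Day 10 (2.04, adjusted p = 0.024). Slc20a2 was called at 0.25 (adjusted p = 0.011) from Day 7 to Day 10 at 0.5 times the resolution and at -0.30 (adjusted p = 0.0051) from Day 2 to Day 7 with library totals. The interaction was called for 4 of the 6 genes at each comparison, with 0 higher and 4 lower, 4 higher and 0 lower, and 1 higher and 3 lower. Among all genes it was called for 47.2% from Day 2 to Day 7 (25% higher, 22.2% lower), for 41.9% from Day 7 to Day 10 (21.1% higher, 20.9% lower) and for 48.7% from Day 2 to Day 10 (26.2% higher, 22.6% lower). Library totals moved its all-gene median by -0.34, 0.14 and -0.19 and the higher share of its calls from 52.9% to 19.5%, from 50.2% to 72.2% and from 53.7% to 32.5%.

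**Figure D2:**
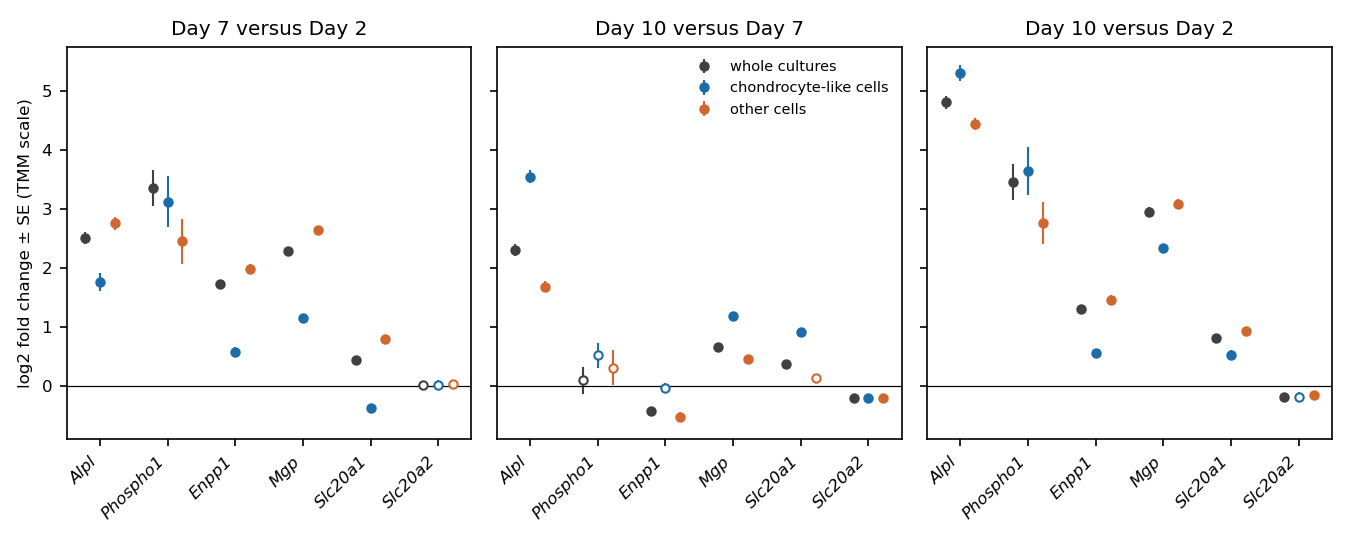
Fitted log2 differences of the 6 genes (vertical axis, TMM scale, bars of 1 SE) for the 3 comparisons of days, in whole cultures, chondrocyte-like cells and other cells. Filled points were called at an adjusted p under 0.05 and open points were not. The largest step of Alpl between neighbouring days is that of the chondrocyte-like cells from Day 7 to Day 10 (3.55), and Slc20a2 stays within 0.21 of 0 in all panels.

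At Day 10 the chondrocyte-like clusters and the bone-like cluster together held most of the Alpl and Phospho1 counted. Of all Alpl UMIs at Day 10, 46.8% and 43.4% (replicates A and B) came from the chondrocyte-like cells, which held 25.3% and 24.4% of all UMIs. The bone-like cluster gave 18.8% and 19.3% of Alpl from 1.54% and 1.59% of the cells, and the contractile-like cells 1.04% and 0.823% from 18.1% and 17.1% of the UMIs. The bone-like share is thus set against cells, whereas the shares of the other classes are set against UMIs. Phospho1 was shared in the same way, with 67.8% and 57.1% of its UMIs in the chondrocyte-like cells and 16.8% and 21.4% in the bone-like cluster. The inhibitors differed in the bone-like cluster, which held 0.567% and 0.568% of Enpp1 and 0.442% and 0.465% of Mgp. The chondrocyte-like cells held 38.3% and 34.4% of Enpp1 and 27.7% and 28.8% of Mgp, above their share of UMIs as for Alpl. At Day 7 the chondrocyte-like cells had held 33.1% and 26.0% of Alpl with 42% and 40.5% of the UMIs, and 71.7% and 74.5% of Phospho1. These shares follow both the size of a class and its level, and clusters were drawn from these same cells, so they are given with no test.

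The bone-like cluster (cluster 17) had the highest Alpl of the 20 clusters of Day 10, at 747 and 764 CPM (755 ± 12.5 SD, n = 2), and Alpl was the tenth of its leading genes. Its Phospho1 was also the highest, at 4.45 and 5.06 CPM (25 and 27 UMIs). At the same time it held the lowest mean levels of Enpp1 (2.67 and 2.81 CPM), Mgp (490 and 469 CPM), Slc20a1 (a mean of 12.2 CPM) and Slc20a2 (5.52 and 5.06 CPM). The next lowest clusters lay close by: cluster 3 had a mean of 2.92 CPM of Enpp1, the immune-like cluster had 551 and 432 CPM of Mgp, which overlaps the bone-like values, and cluster 0 had 12.9 and 13.9 CPM of Slc20a1. In these cells the promoters were thus high and both inhibitors low. The cluster also carried Ibsp at 21736 CPM, Smpd3, the sphingomyelinase of matrix vesicle release, at 1082 CPM, and Sp7 at 190 CPM.

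In 1 of the chondrocyte-like clusters, cluster 10, Alpl and both inhibitors were high side by side. It had the second highest Alpl of all clusters, at 334 and 271 CPM (303 ± 44.2), together with the highest Enpp1, at 41.1 and 33.5 CPM, and the highest Mgp, with a mean of 4088 CPM. Its cells had median counts of 8255 and 8101 UMIs. Cluster 0, the deepest and most numerous of the class with 1340 and 1133 cells, had Alpl at 148 and 163 CPM, Enpp1 at 12.9 and 14.7 CPM, Mgp at 2698 and 2962 CPM and Phospho1 at 1.62 and 1.58 CPM. Cluster 16 had Alpl at 143 and 126 CPM, just below cluster 0. The shallow clusters 9 and 11 had Alpl at 153 and 107 CPM and at 124 and 91.4 CPM, with Mgp at means of 853 and 940 CPM, the lowest of the class. The order of mean Alpl among the chondrocyte-like clusters was thus 10, then 0, 16, 9 and 11. Cluster 10 stood clear of cluster 0, and clusters 0 and 16 lay side by side. The cultures of cluster 9 overlapped those of clusters 0, 16 and 11.

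Several clusters without a name also had high Alpl. The unnamed cluster 4, led by Nrgn, Wfdc2 and Penk, had 135 and 158 CPM, about the level of cluster 0, with Mgp at a mean of 3173 CPM. The shallow unnamed clusters 5, 6 and 8 had mean Alpl levels of 126, 171 and 183 CPM and the highest Slc20a1, at 128, 131 and 100.2 CPM. These 4 clusters were not free of cartilage or bone RNA: Col2a1 had means of 1512, 2331, 2435 and 2056 CPM in clusters 4, 5, 6 and 8, against 18913 CPM in cluster 0 and 267 CPM in the contractile-like cluster 1, and Sp7 had 29.4, 13.3, 18.7 and 20.9 CPM, against 37.1 and 1.60 CPM. The cells of clusters 5, 6 and 8 had median counts of 3559 to 7144 UMIs, and the part of depth in these levels was not tested. At the other end stood the contractile-like cluster 1 with 4.95 and 4.37 CPM of Alpl and the Dlk1- and Crabp1-led cluster 15 with 4.44 and 5.81 CPM, which overlap. Cluster 15 nevertheless had the second highest Enpp1, at 24.0 and 35.8 CPM. The Prg4-led cluster 2 combined high Mgp, a mean of 3385 CPM, with Alpl at 11.4 CPM.

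**Figure D3:**
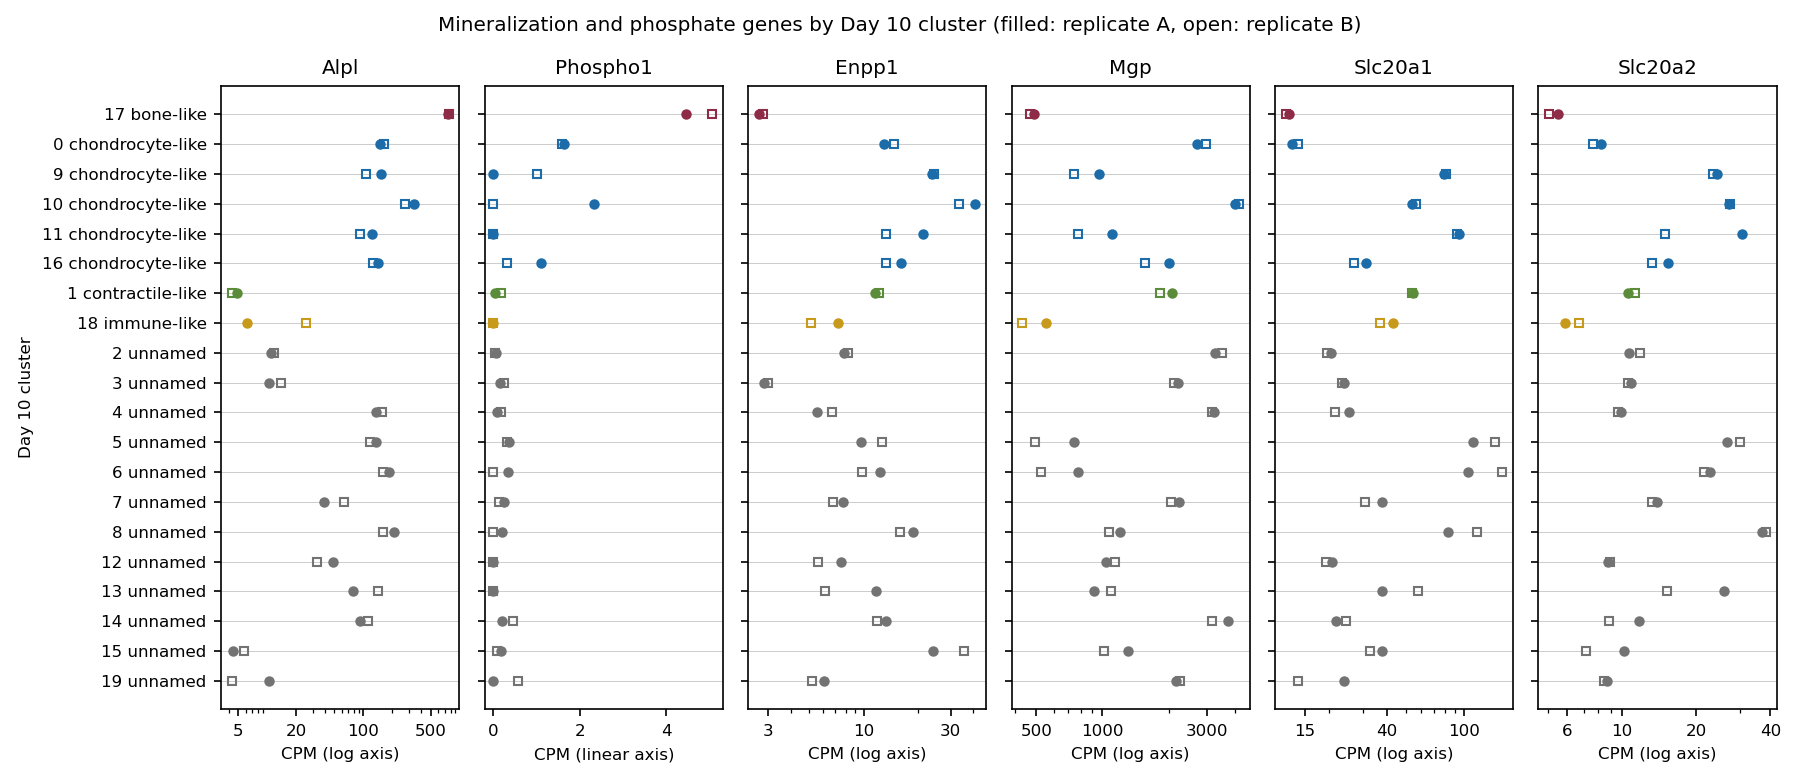
Levels of the 6 genes in CPM in the 20 Day 10 clusters, coloured by the name of the cluster, with filled points for replicate A and open points for replicate B. Axes are logarithmic except for Phospho1, which is linear. The bone-like cluster 17 is at the top for Alpl (755 CPM) and Phospho1 and has the lowest mean of the other 4 genes, overlapping the immune-like cluster for Mgp.

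On earlier days the highest Alpl lay elsewhere. At Day 7 it was found in cluster 8, an unnamed cluster led by Pcp4, Igf1 and Tnmd, at 63.2 and 61.3 CPM, which also had the highest Mgp, a mean of 3210 CPM. The chondrocyte-like cluster 0 had 12.8 and 9.71 CPM of Alpl and the highest Phospho1 of that day, 0.842 and 1.10 CPM, while the chondrocyte-like cluster 9 (median 7617 and 6953 UMIs) had 46.7 and 23.6 CPM of Alpl and the highest Enpp1, 36.2 and 28.3 CPM. Cluster 13, with Ihh and Smpd3 among its leading genes, had a mean of 16.8 CPM of Alpl. At Day 2 the chondrocyte-like cluster 3 had the highest Mgp, a mean of 682 CPM, and 13.8 CPM of Enpp1. Alpl at Day 2 was highest in the shallow cluster 8, at a mean of 9.63 CPM, and the interdigital-like cluster 9 had little of either Alpl (1.12 CPM) or Mgp (78.6 CPM).

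The chondrocyte-like cells of Day 10 were ranged by Col10a1, after each cell had been thinned to 1000 UMIs. In cells with 0, 1 and 2 or more Col10a1 UMIs, Alpl was 137, 246 and 466 CPM in replicate A and 149, 281 and 366 CPM in replicate B, a rise in both cultures. Mgp went the other way at the top of this range, with 2676, 2649 and 1588 CPM in replicate A and 2779, 2312 and 1717 CPM in replicate B. Enpp1 was 15.7, 11.7 and 11.8 CPM in replicate A and 16.2, 14.2 and 11.3 CPM in replicate B. Few cells were in the upper ranges, 103 and 98 with 1 UMI and 78 and 33 with 2 or more, against 2466 and 2442 with none. Ibsp moved with Alpl, from 233 and 298 CPM at 0 Col10a1 UMIs to 1487 and 1402 CPM at 2 or more, and so did the depth of the cells, from a median of 20969 and 16044 UMIs to 43375 and 58468. Their part in the rise of Alpl was not tested. Ranged by Ihh, a signal of prehypertrophic chondrocytes, Alpl was 147, 262 and 524 CPM in replicate A and 153, 262 and 260 CPM in replicate B. Mgp did not fall along Ihh, with 2620, 2593 and 3029 CPM in replicate A and 2669, 3334 and 3941 CPM in replicate B, where 14 and 17 cells had 2 or more Ihh UMIs. These ranges are slices of a continuous count and no cell types.

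**Figure D4:**
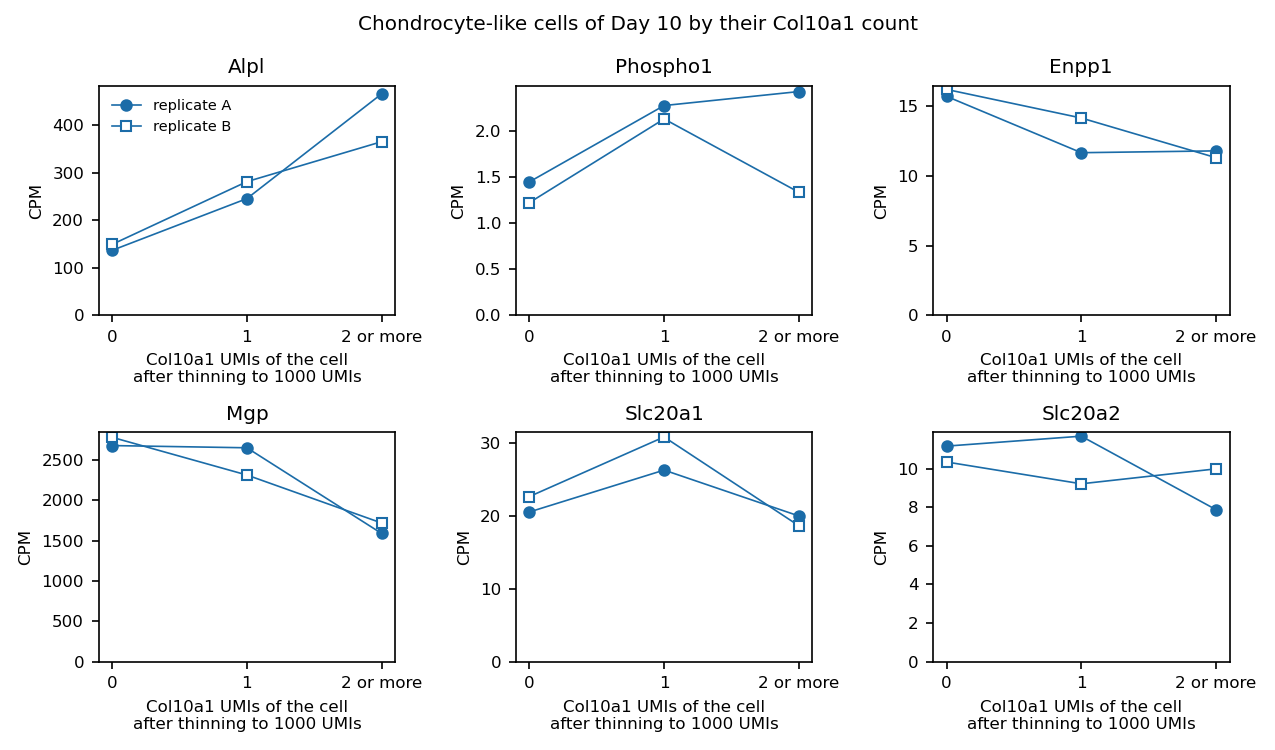
Levels in CPM of the 6 genes in Day 10 chondrocyte-like cells with 0, 1 and 2 or more Col10a1 UMIs after thinning to 1000 UMIs per cell, with filled points for replicate A and open points for replicate B. Alpl climbs from 137 and 149 CPM to 466 and 366 CPM, while Mgp falls from 2676 and 2779 CPM to 1588 and 1717 CPM.

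Alpl RNA was also met in more cells over time. Thinned to 1000 UMIs, 0.515% and 0.372% of chondrocyte-like cells had an Alpl UMI at Day 2, 1.77% and 1.64% at Day 7, and 12.5% in both replicates at Day 10 (exact binomial 95% intervals 11.3% to 13.9% in each, counting error only). As counted, the shares were 6.84% and 9.30%, 22.9% and 18.8%, and 58.7% and 54.4%. In the bone-like cluster 54.4% and 53.8% of cells had an Alpl UMI after thinning, and 159 of 160 and 158 of 158 as counted, at median depths of 33708 and 32215 UMIs. Immune-like cells had an Alpl UMI in 15 of 118 and 22 of 163 cells as counted (12.7% and 13.5%, at median depths of 21232 and 21616 UMIs, against 21662 and 16758 in the chondrocyte-like cells). Whether these UMIs came from RNA of the immune-like cells themselves was not tested. After thinning the immune-like share was 0 of 118 cells, which allows a share of up to 2.54%, and 1.84%. The Day 10 share in the chondrocyte-like cells thus lay above that in the immune-like cells of the same libraries, while Day 7 had only 28 and 43 immune-like cells, too few for such a comparison. Phospho1 was seen as counted in 3.55% and 2.60% of chondrocyte-like and 12.5% and 13.9% of bone-like cells, and in 0 of 118 and 0 of 163 immune-like cells, which allow shares of up to 2.54% and 1.84%.

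For each of the 6 genes, the genes with the most similar levels over clusters were sought among 8310 genes in 48 clusters of at least 20 cells per library. The clusters share libraries, depth and days, so the Pearson coefficients of log2(CPM + 1) are a description. Alpl was most like Sp7 (0.88), the osteoblast transcription factor, the collagenase Mmp13 (0.88) and Cd200 (0.88). Phospho1 was most like Sgms2 (0.77), a sphingomyelin synthase, Rcor2 (0.74) and Pth1r (0.71), the receptor for PTHrP. Enpp1 went with Edil3 (0.82), Itga1 (0.81) and Tns2 (0.81), and Mgp with Tmed3 (0.90), Crlf2 (0.88) and Kazald1 (0.88). Slc20a1 went with Sgms1 (0.90), Camk2d (0.89) and Esyt2 (0.89), and Slc20a2 with Igf1r (0.90), Eif4g1 (0.90) and Lemd3 (0.87). Between the genes themselves, Alpl had 0.55 with Phospho1, 0.51 with Mgp, 0.46 with Enpp1, 0.41 with Slc20a1 and 0.16 with Slc20a2.

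The wider pathway was followed with 27 further genes of 4 groups, of which 24 were tested in whole cultures and 19 in the chondrocyte-like cells. In whole cultures 16 were called higher and 1 lower from Day 2 to Day 7, 10 higher and 5 lower from Day 7 to Day 10, and 17 higher and 5 lower from Day 2 to Day 10. Their median log2 differences were 1.16, 0.16 and 1.57, where the medians of all genes tested were 0.01, -0.02 and 0.00. In the chondrocyte-like cells 14 were higher and 3 lower, 10 higher and 2 lower, and 17 higher and 2 lower, with medians of 1.04, 0.35 and 1.49 beside 0.02, 0.00 and 0.03 for all genes. The percentages of all genes called are those given above for the same comparisons.

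From Day 2 to Day 10 in whole cultures, all 9 tested genes of the mineral-binding and Gla matrix proteins were called higher. Among them Ibsp (bone sialoprotein) went from 18 and 50 UMIs per library at Day 2 (0.0876 and 0.281 CPM) to 499.6 and 721 CPM at Day 10. Ucma rose by log2 9.06, Bglap (osteocalcin) by 5.69, Spp1 (osteopontin) by 2.61, and Ggcx, the vitamin K-dependent carboxylase that activates Mgp, by 0.94. All 4 matrix vesicle genes were called higher, with Smpd3 at 8.66 and Anxa5 at 0.23. Of the 4 pyrophosphate genes, Ank, which exports pyrophosphate or its precursor, rose by 1.94 and Nt5e, which makes adenosine downstream of Enpp1, by 3.99, while Abcc6 fell by 1.32 and Enpp3 did not pass the test. Of the 7 phosphate transport and sensing genes tested, the phosphate exporter Xpr1 (0.49) and Galnt3 (1.42) were higher, and Phex (-0.58), Fgf23 (-2.46), Kl (-1.77) and Fgfr1 (-0.14) were lower. Fgf23 and Kl were not tested in the chondrocyte-like cells, where the low-count filter left them out. Phex, an endopeptidase of osteoblasts, was the other way round in the chondrocyte-like cells, at 0.52 from Day 2 to Day 10 and 1.72 from Day 7 to Day 10, and both were called. The difference between these 2 populations was not tested, since one contains the other.

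**Figure D5:**
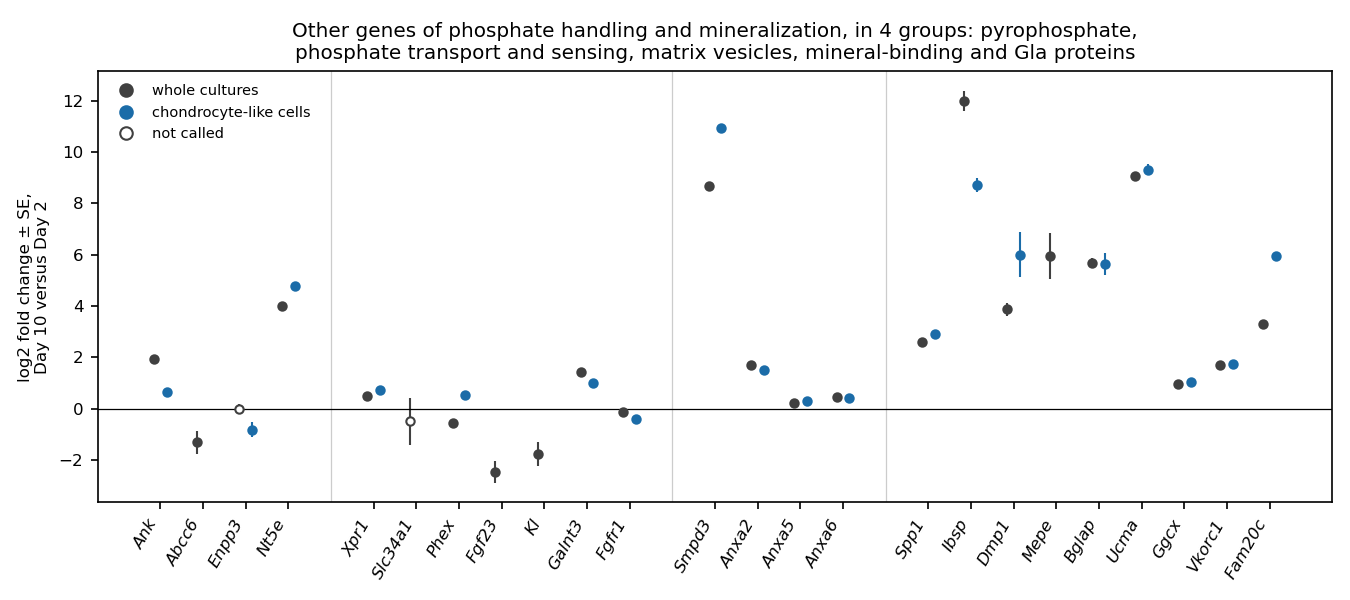
Log2 differences from Day 2 to Day 10 (vertical axis, TMM scale) of the 24 tested pathway genes in their 4 groups, grey for whole cultures and blue for chondrocyte-like cells, with open points for genes not called. Mineral-binding genes and vesicle genes lie above 0, with Ucma at 9.06 in whole cultures, and genes of phosphate transport and sensing lie above and below it.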

How the data were processed

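The authors made 10x Genomics 3′ libraries from DID cultures and deposited, per library, a table of UMI counts by gene and barcode. Per the labels and the submitters' processing notes, Cell Ranger 6.1.2, STAR, Seurat 4.1.0 and the build GRCm38 (mm10) were used. The deposited counts are whole numbers, neither filtered by the study's cell thresholds nor normalized. Kept here were cells with 200 to 7500 genes, at least 800 or 1000 UMIs by library, at most 25%, 30% or 40% mitochondrial UMIs at Day 2, Day 7 and Day 10, and at most 35% or 40% ribosomal UMIs. No doublet caller was run.

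Cells of each day were clustered with Seurat 5.3.0 (SCTransform, integration of the 2 replicates, 35 dimensions, resolution 0.5, 0.5 and 0.7) without the 6 genes. A cluster was named from its best marker list when at least 3 of that list's markers were higher by over log2 1 and had UMIs in at least 25% of its cells, and the list had more of the 10 leading genes than any other. This rule was tightened after leading genes had been seen. UMIs were summed per library over all cells, chondrocyte-like cells and the rest, and tested with edgeR 4.0.16 (quasi-likelihood, filterByExpr, TMM, all 6 libraries in 1 fit with 3 residual degrees of freedom, Benjamini-Hochberg adjustment over all genes tested, called at an adjusted p under 0.05). The interaction used both sums of each library with library as a covariate. DESeq2 1.42.0 was an alternative. The replicates of a day are independent cultures per the methods of the paper, and the test measures the spread between them. Whether their letters pair cultures across days is not given. The A minus B deviations were nearly uncorrelated between days (-0.057 to 0.004), which cannot show whether preparations were shared. On simulated counts for Day 10 with Day 7 in the 16121 genes of the chondrocyte-like cells, 79% of changes of log2 0.5 and 100% of changes of log2 1 were recovered, against 77% and 98% in the 18987 genes of whole cultures and 44% and 99% for the interaction in 18281 genes. The simulations changed 100 genes at each size, drawn only from well-counted genes, with the same assumed spread for every gene. The recovered shares therefore do not cover genes counted as sparsely as Phospho1. Shares of cells have exact binomial 95% intervals, and a count of 0 allows 3 counts. Both cover counting error only.

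Genes named are the 6, a list of 27 pathway genes in 4 groups, hypertrophy and bone markers, and for each of the 6 the 3 genes most alike over clusters. The 6 genes and all lists were chosen with earlier results of these data known. Alternatives were another scaling, DESeq2, no low-count filter, each library left out, a replicate block, only the days compared, all barcodes, cells thinned to 1000 UMIs, other clusterings and a class drawn from at least 5 chondrocyte marker UMIs per cell.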

Additional observations from a re-analysis of the deposited data

Results flagged for a closer look

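In 12 cases the change of a gene between days differed between the chondrocyte-like cells and all other cells by the interaction test (edgeR quasi-likelihood, adjusted over all genes), 4 of the 6 genes at each comparison, where 47.2%, 41.9% and 48.7% of all genes were called. Values are the log2 change in the chondrocyte-like cells minus that in the other cells. From Day 2 to Day 7 they were -0.95 for Alpl (adjusted p = 0.00054), -1.36 for Enpp1 (4.1e-07), -1.44 for Mgp (5.6e-10) and -1.13 for Slc20a1 (8.4e-07), all lower in the chondrocyte-like cells. From Day 7 to Day 10 all 4 turned round, with 1.91 for Alpl (2.3e-08), 0.53 for Enpp1 (0.00039), 0.77 for Mgp (1.5e-07) and 0.81 for Slc20a1 (9.5e-06). From Day 2 to Day 10 the difference was 0.96 for Alpl (0.00019), -0.82 for Enpp1 (4.1e-05), -0.66 for Mgp (2.1e-07) and -0.31 for Slc20a1 (0.013). When clusters were drawn at 0.5 times the resolution, which put 40.1% and 17.2% of Day 2 cells in the class, the Day 2 to Day 10 difference was 0.14 for Alpl (adjusted p = 0.38), -0.029 for Enpp1 (0.83) and -0.18 for Slc20a1 (0.13), and none of these was called. That of Phospho1 was called higher at 2 times the resolution (2.04, adjusted p = 0.024). Over the 3 other clusterings the Day 2 to Day 7 difference was -1.87 to -0.44 for Alpl and -1.06 to -0.63 for Enpp1. The call of Slc20a1 from Day 2 to Day 10 was lost without Day 2 replicate A (adjusted p = 0.066) or B (0.06).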

How the results depend on the processing

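Over the alternatives run, Mgp kept its direction and its side of the threshold in 177 of 177 results, Alpl in 175 of 177, Slc20a1 in 170, Enpp1 in 167, Phospho1 in 157 of 168 and Slc20a2 in 117 of 177. Phospho1 has fewer results because it was not among the genes tested in thinned cells. Scaling to library totals, the same set of alternatives for the other cells, and the Alpl level without the bone-like cluster were chosen after seeing the data.

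Thinning cells to 1000 UMIs leaves fewer counts, and called genes fell to 7881, 3424 and 8758 in whole cultures (from 13342, 9913 and 14670 at Day 7 with Day 2, Day 10 with Day 7 and Day 10 with Day 2), to 5024, 2823 and 5597 in chondrocyte-like cells (from 11458, 6404 and 12047) and to 7550, 4263 and 8060 in other cells (from 12404, 10174 and 14145). Of the 6 genes, 2 and 3 were then called in chondrocyte-like cells at the first and last comparison, not 5 and 5. Phospho1 was not tested in thinned cells and so is missing from these counts without having failed the test. The calls lost in a test were those of Enpp1 and Slc20a1 at the first comparison and of Enpp1 at the last. At 0.5 times the resolution 1 of the 6 was called in the Day 10 with Day 2 interaction, not 4. Leaving out single libraries gave 4080 to 6946 called genes in chondrocyte-like cells at Day 10 with Day 7, with 4080 without Day 7 replicate A and 4210 without Day 7 replicate B. At Day 10 in chondrocyte-like cells, Enpp1 was 15.2 CPM without integration, and Mgp 2588 CPM and Slc20a1 26.9 CPM at 0.5 times the resolution. Alpl in other cells at Day 10 was 43.4 CPM without the bone-like cluster. As counted, shares of cells with an Alpl UMI were 5.62%, 3.55%, 16.5%, 15.2%, 36.3% and 35.2% in the 6 libraries in order of day and letter, and 6.84%, 9.30%, 22.9%, 18.8%, 58.7% and 54.4% in chondrocyte-like cells.

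Most reversals were of Slc20a2, and many of these lay near 0. Larger ones came in thinned cells and with library totals, and some of those with library totals were called. From Day 2 to Day 7 its log2 difference in whole cultures was -0.0084 with DESeq2 size factors, -0.0083 with the DESeq2 test, -0.0077 with all barcodes and -0.27 with library totals. In chondrocyte-like cells it was -0.46 with library totals, -0.071 at 0.5 times the resolution and -0.095 with the class by marker UMIs, and in other cells -0.15 with library totals. Thinned cells gave 0.32 in whole cultures, 0.50 in chondrocyte-like and 0.26 in other cells for Day 10 with Day 2, and 0.10 in chondrocyte-like cells for Day 10 with Day 7. Its interaction was -0.0034 with DESeq2 size factors, -0.30 with library totals and -0.099 at 0.5 times the resolution for Day 7 with Day 2, -0.0097 with size factors and -0.059 without integration for Day 10 with Day 7, and -0.013 with size factors and -0.14 with library totals for Day 10 with Day 2. Slc20a1 in chondrocyte-like cells was 0.29 for Day 7 with Day 2 with the class by marker UMIs, Enpp1 there 0.080 for Day 10 with Day 7 with library totals, and the Phospho1 interaction without integration was -0.15 for Day 10 with Day 7 and -0.043 for Day 10 with Day 2. Single libraries left out gave ranges across 0 for Slc20a2 at Day 7 with Day 2 (-0.023 to 0.048 in whole cultures, -0.013 to 0.085 in other cells), for its interaction (-0.015 to 0.090, -0.040 to 0.067 and -0.016 to 0.11), for Phospho1 at Day 10 with Day 7 (-0.0096 to 0.22, interaction -0.076 to 0.53) and for Enpp1 in chondrocyte-like cells at Day 10 with Day 7 (-0.069 to 0.013). Beyond scaling, class and counts, the cause was not tested.

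The replicate block called 13135, 9607 and 14524 genes in whole cultures and 11371, 6155 and 11961 in chondrocyte-like cells. It ended the call of Slc20a2 in other cells for Day 10 with Day 2 (-0.16, adjusted p = 0.054) and changed no other call of the 6 genes. Depth limits Phospho1 most, with 8 and 15 UMIs in the Day 2 libraries.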
